A study of Mus musculus with 10 samples.

Results

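Enteroendocrine cells are the hormone-secreting cells scattered through the intestinal epithelium, and their formation depends on a cascade of transcription factors. The genes described here are 9 such factors, listed by gene symbol: Neurog3, Neurod1, Insm1, Nkx2-2, Rfx6, Pax4, Pax6, Isl1 and Fev. Each was looked up in the probe annotation of the array, and a gene with several probe sets was represented by the one brightest on average across the 10 arrays. A probe set was found for 7 of the 9, out of 19505 genes measured in all, and each of the 7 had 1 probe set. Neurod1 and Fev are unnamed in the annotation used and were not analysed here. Mouse intestinal organoids, miniature epithelia grown in culture, were profiled as 5 KO samples lacking IκBα and 5 WT samples, with 1 array for each sample. IκBα, encoded by Nfkbia, retains NF-kB transcription factors in the cytoplasm, and the series, by its title, is about a fetal phenotype of stem cells without it. Both groups carry the mark P6 in their labels, which the labels do not explain. The labels give no strain, allele, sex or number of animals, nor whether the replicates came from separate animals or cultures, so p-values here reflect only how far these 10 samples scatter, some of which may be technical.

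In the mouse intestine, the bHLH factor Neurog3 is switched on briefly in secretory progenitors and commits them to the endocrine fate, and mice without it lack enteroendocrine cells. Neurod1, the zinc finger factor Insm1, the homeodomain factor Nkx2-2 and the winged helix factor Rfx6 act downstream of it in differentiating endocrine cells. The paired-domain factors Pax4 and Pax6 and the LIM-homeodomain factor Isl1 shape which hormones are made, and the ETS factor Fev is known from serotonin-producing cells. Upstream, Atoh1 opens the secretory path, and Notch signalling through Hes1 holds Neurog3 down. Several of these factors also serve in pancreatic islets and in neurons.

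All levels are on the log2 scale as deposited, and every change is KO minus WT. The targeted gene Nfkbia averaged 5.06 ± 0.31 in KO arrays and 9.19 ± 0.38 in WT arrays (SD, n = 5 each), with no overlap. Array medians ran from 6.53 to 6.67, and the medians of the negative control probe sets lay between 4.30 and 5.10. A level within that range, called the negative control range below, is not clearly above background, and a fall to it is then a lower bound. It is a range of medians, so a level above it can still lie among single control probe sets. Spike-in RNAs were lower in KO arrays, with changes of the 8 probe sets between -0.85 and -0.10 and a median of -0.52. The 3 Y-linked transcripts measured were lower in KO as well, with changes between -5.20 and -2.42. The sex of the cultures and their genotype cannot be told apart in any comparison here.

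RefSeq promoter sequences were available for 5 of the 7 measured factors, Neurog3, Rfx6, Nkx2-2, Isl1 and Pax6, the last with 2 promoters. Of these, 3 are shown because they belong to the factor at the head of the cascade, to the factor with the largest measured fall and to the 1 measured factor that did not pass the test. Each window spans 250 bases before to 50 bases after the gene's start in the build GRCm38.p6, written 5′ to 3′ on the strand of the gene. The windows lie at chr10:62132840-62133139 on the plus strand for Neurog3, chr10:51685268-51685567 on the plus strand for Rfx6 and chr2:147186353-147186652 on the minus strand for Nkx2-2. Capitals mark the E-box form CAGATG, which neurogenin and NeuroD factors can bind, and the N-box form CACNAG, which Hes repressors can bind, both searched on both strands.
Neurog3: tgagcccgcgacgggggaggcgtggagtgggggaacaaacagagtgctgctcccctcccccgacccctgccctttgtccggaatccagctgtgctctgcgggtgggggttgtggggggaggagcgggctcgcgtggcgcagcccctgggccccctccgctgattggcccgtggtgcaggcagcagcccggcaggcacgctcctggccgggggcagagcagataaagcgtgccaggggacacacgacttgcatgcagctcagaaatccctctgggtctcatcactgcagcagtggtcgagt
Rfx6: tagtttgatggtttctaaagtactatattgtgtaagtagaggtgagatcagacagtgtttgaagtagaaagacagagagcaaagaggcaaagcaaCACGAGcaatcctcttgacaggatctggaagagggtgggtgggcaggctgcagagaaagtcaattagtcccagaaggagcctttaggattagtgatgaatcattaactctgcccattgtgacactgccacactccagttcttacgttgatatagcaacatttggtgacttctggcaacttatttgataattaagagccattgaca
Nkx2-2: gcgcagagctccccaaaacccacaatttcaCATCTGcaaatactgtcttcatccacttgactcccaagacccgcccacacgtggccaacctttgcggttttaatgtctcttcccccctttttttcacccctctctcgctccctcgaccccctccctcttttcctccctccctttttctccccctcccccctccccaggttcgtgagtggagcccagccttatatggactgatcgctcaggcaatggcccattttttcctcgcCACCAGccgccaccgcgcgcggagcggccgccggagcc
The CAGATG form was found in 1 of the 6 promoters, that of Nkx2-2, as its reverse complement starting 220 bases before the gene's start, and 17.2% of all 32851 promoters of this length held it. The CACNAG form was found in 3 of the 6, at 155 bases before the start of Rfx6, 136 bases before the start of the second Pax6 promoter and 12 bases after the start of Nkx2-2. It was present in 42.5% of all promoters. An NF-kB form, GGG and TTCC with 3 free bases between them, was found in 0 of the 6 and in 5.56% of all promoters, and TATAAA in 0 of the 6 and in 13.6%. No 2 of these motifs overlapped in the windows shown. These are matches of letters in a short window, and binding was not measured.

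The endocrine factors were lower in KO organoids. Of the 7 measured, 6 fell and 0 rose, where 11.7% of all 19572 tested probe sets were lower and 15.0% higher (limma, adjusted p under 0.05). The falls ranged from Rfx6, at 24.7% of its WT level, to Pax6, at 66.7%. The median change of the 7 was -1.05, against -0.01 over all tested probe sets. For the 6 that fell, all 5 KO values lay below all 5 WT values, which held for 9.07% of tested probe sets. RNA of whole cultures was measured, so fewer endocrine cells and less RNA per cell cannot be told apart.

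**Figure D1:**
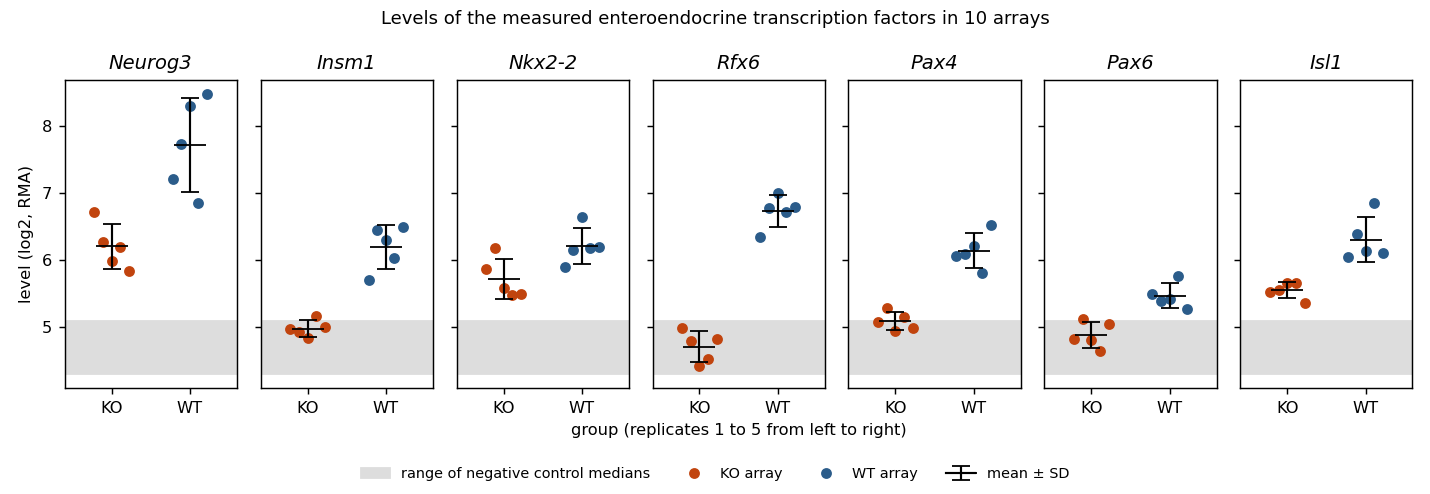
Level of each measured factor (log2, vertical axis) in the 5 KO arrays (left, orange) and the 5 WT arrays (right, blue), with mean ± SD and, in grey, the range of the negative control medians. The groups overlap only for Nkx2-2, and the KO means of Rfx6, Insm1, Pax4 and Pax6 lie within the grey band.

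Neurog3, the initiator of the cascade, had levels of 6.72, 6.27, 5.98, 6.20 and 5.84 in KO replicates 1 to 5, against 7.20, 7.73, 8.30, 6.84 and 8.48 in WT replicates 1 to 5. The groups did not overlap, but KO replicate 1 and WT replicate 4 stood only 0.12 apart. This was a change of -1.51 (SE 0.30), a 2.85-fold lower level (limma, adjusted p = 0.00266). Neurog3 had the widest spread of the 7 factors in both groups, with an SD of 0.34 in KO and 0.70 in WT. Its KO levels stayed above the negative control median of every KO array.

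Of the 3 measured factors that act just downstream of Neurog3, Rfx6 and Insm1 fell and Nkx2-2 did not pass. Rfx6, needed for endocrine differentiation and for hormone genes, had levels of 4.99, 4.79, 4.42, 4.52 and 4.81 in KO replicates 1 to 5. In WT replicates 1 to 5 it had 6.34, 6.78, 6.996, 6.72 and 6.78. The groups lay 1.35 apart at their nearest values, and the change of -2.02 (SE 0.15) made it 4.05-fold lower (limma, adjusted p = 9.85e-07). In KO, 1 of 5 arrays was above its own negative control median, so this size is a lower bound.

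Insm1, a zinc finger factor of differentiating endocrine cells, had levels of 4.97, 4.92, 4.83, 5.17 and 5.00 in KO replicates 1 to 5, against 5.70, 6.45, 6.29, 6.03 and 6.48 in WT replicates 1 to 5. The KO values were tightly grouped, with an SD of 0.12, while the lowest WT value was that of replicate 1. Insm1 thus changed by -1.21 (SE 0.15) and was 2.32-fold lower (limma, adjusted p = 8.99e-05). In KO, 4 of 5 arrays were above their own negative control median. The KO mean still lay within the negative control range, so this size too is a lower bound.

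Nkx2-2 had levels of 5.87, 6.17, 5.58, 5.47 and 5.49 in KO replicates 1 to 5, against 5.89, 6.15, 6.64, 6.18 and 6.19 in WT replicates 1 to 5. Here the groups overlapped, since KO replicate 2 was above WT replicates 1 and 2. Its change of -0.49 (SE 0.17) missed the threshold (limma, adjusted p = 0.0515), and its unadjusted 95% interval ran from -0.86 to -0.12. The call turned on single arrays: it passed without KO replicate 2 (-0.60; limma, adjusted p = 0.0143) and without WT replicate 1 (-0.57; limma, adjusted p = 0.0330). It also passed after cyclic loess normalization (-0.51; limma, adjusted p = 0.0469), centring on the 75th percentile (-0.52; limma, adjusted p = 0.0420) or weighting of arrays by quality (-0.56; limma, adjusted p = 0.0133). Of all 23 alternative settings, however, it passed under 9 and not under 14. It did not pass by permutation of the arrays, for example (two-sided exact permutation, adjusted p = 0.0994).

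The 3 measured factors that steer hormone choice, Pax4, Pax6 and Isl1, all fell. Pax4, which favours serotonin- and somatostatin-producing cells in the mouse gut, had levels of 5.07, 5.28, 4.94, 5.15 and 4.99 in KO replicates 1 to 5. In WT replicates 1 to 5 it had 6.05, 6.09, 6.21, 5.80 and 6.52. Pax4 changed by -1.05 (SE 0.13) and was 2.07-fold lower (limma, adjusted p = 0.000106), and the nearest values of the groups were 0.52 apart. Its level was above the negative control median in 4 of 5 KO arrays.

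Pax6, which activates hormone genes, had levels of 4.82, 5.12, 4.80, 4.63 and 5.04 in KO replicates 1 to 5, against 5.50, 5.39, 5.42, 5.76 and 5.27 in WT replicates 1 to 5. Its change of -0.59 (SE 0.13) left 66.7% of the WT level (limma, adjusted p = 0.00454), and the nearest values were 0.15 apart. Both groups were dim, and 3 of 5 KO arrays against 5 of 5 WT arrays were above their negative control median. The KO means of Pax4 and Pax6 lay within the negative control range, so both sizes are lower bounds.

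Isl1, a factor of several hormone lineages, had levels of 5.53, 5.55, 5.66, 5.65 and 5.36 in KO replicates 1 to 5, against 6.04, 6.38, 6.14, 6.85 and 6.10 in WT replicates 1 to 5. WT replicate 4 was the highest and the KO values lay within 0.30 of each other. Isl1 was 1.68-fold lower, a change of -0.75 (SE 0.15; limma, adjusted p = 0.00315).

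**Figure D2:**
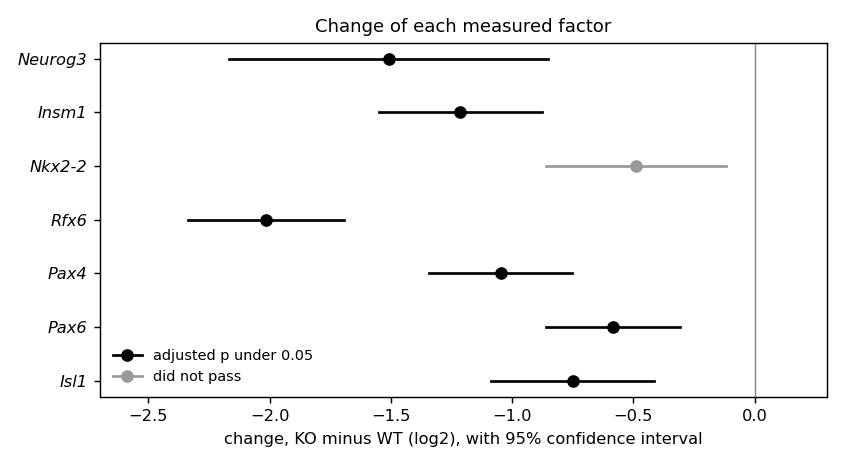
Change of each measured factor, KO minus WT on the log2 scale (horizontal axis), with its unadjusted 95% confidence interval from limma. Rfx6 changed by -2.02 and Nkx2-2, in grey, by -0.49 without passing the adjusted threshold.

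Some of these changes were no larger than those of the spike-in RNAs, so each factor was also read with the arrays centred on the 8 spike-ins, a setting chosen after their values were seen. This moved the median change of all tested probe sets to 0.48, and 12655 of the 19572 were then higher and 972 lower (limma, adjusted p under 0.05). The falls of Rfx6 (-1.52), Neurog3 (-1.02), Insm1 (-0.72) and Pax4 (-0.56) still passed in that setting (limma, adjusted p = 8.77e-05 to 0.0163). Isl1 (-0.26; limma, adjusted p = 0.170) and Pax6 (-0.09; limma, adjusted p = 0.591) did not pass there, and Nkx2-2 stood at 0.00099. Centring shifts every change by the same amount, so distances from the median of all probe sets are the same with and without it. Those distances were -0.74 for Isl1, -0.57 for Pax6 and -0.48 for Nkx2-2, and they are no further test of these factors. Against a change of at least 1.2-fold, Pax6 lost its call (limma's treat, adjusted p = 0.0780), which left 5 of 7 factors lower, where 6.45% of tested probe sets were lower.

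Whether the factors fell by different amounts was tested on the difference between 2 factors within each array, over all 21 pairs. Such a test compares the responses of different probe sets. 5 pairs passed, each with Rfx6 as the factor of the larger measured change. Its change lay below that of Nkx2-2 by 1.53 (SE 0.13) and below that of Isl1 by 1.27 (SE 0.22), and the KO means of both these factors were above the negative control range. The other 3 pairs were with Pax6, Pax4 and Insm1. In all 5 pairs the KO and WT differences did not overlap (two-sided exact permutation, p = 0.00794, which is as small as 5 against 5 arrays allow, and 0.0333 after adjustment over the 21 pairs). Pax6, Pax4 and Insm1 reached the negative control range in KO from WT means only 0.74, 1.40 and 1.46 above the mean negative control median, against 1.99 for Rfx6. That leaves less room for a measured fall, so neither the direction nor the size of these 3 differences is settled. Rfx6 and Neurog3 differed by 0.51 (SE 0.29), short of the threshold (two-sided exact permutation, adjusted p = 0.155), and the other 15 pairs did not pass either. WT replicate 4 bore on this count, since 14 of 21 pairs passed without it. Among them were Neurog3 minus Nkx2-2 and Neurog3 minus Isl1, with differences of changes of -1.23 and -1.11 (two-sided exact permutation, adjusted p = 0.0238 and 0.0385).

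The WT arrays did not rank the factors alike. WT replicate 4 was the lowest of its group for Neurog3, with a deviation of -0.87 from the group mean, and for Pax4, with -0.33. The same array was the highest for Isl1, at 0.54 above the group mean, and for Pax6, at 0.29 above. WT replicate 1 was the lowest for Insm1, Rfx6, Nkx2-2 and Isl1, with deviations of -0.50, -0.39, -0.32 and -0.26. It was also the lowest WT array for hormone genes, with a mean centred level of 0.51 against 0.89 to 1.18 in the other WT arrays, and for enterocyte markers, with 1.57 against 2.29 to 3.44. WT replicate 4 was the highest for both lists. What part this variation between WT arrays has in the results was not tested. Among KO arrays, replicate 1 was highest for Neurog3, by 0.52 above the group mean, and replicate 2 for Nkx2-2, by 0.45.

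**Figure D3:**
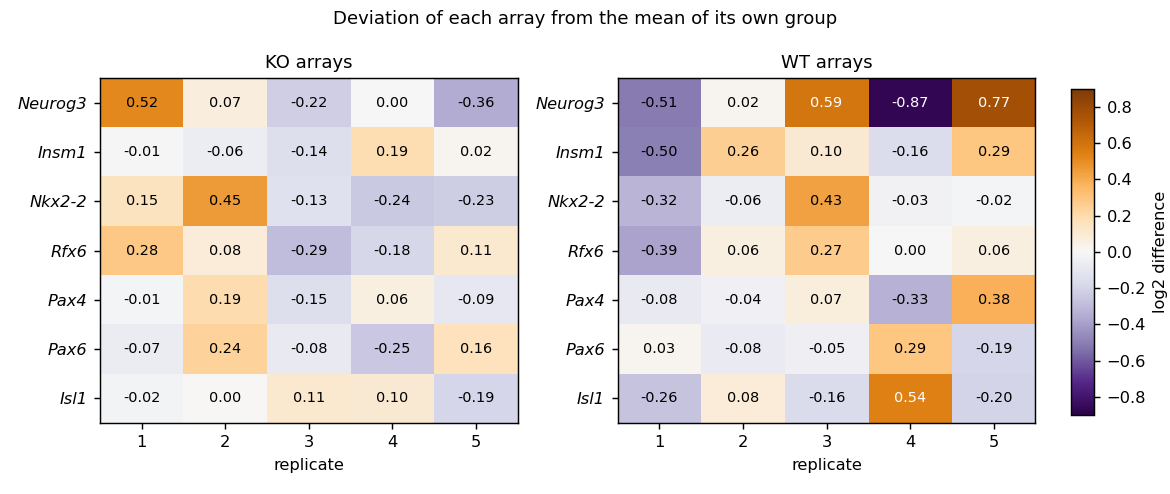
Deviation of each array from the mean of its own group (log2, colour and number) for the 7 measured factors in rows and replicates in columns, with KO arrays left and WT arrays right. WT replicate 4 is at -0.87 for Neurog3 and 0.54 for Isl1.

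Averaged over the 7 factors, the level centred on each probe set's mean was -0.54 ± 0.12 in KO arrays and 0.54 ± 0.19 in WT arrays (SD, n = 5 each). The KO arrays ranged from -0.67 to -0.40 and the WT arrays from 0.25 to 0.72. WT replicate 1 was the nearest to the KO arrays.

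Other transcription factors linked to endocrine cells moved in both directions. Of 25 such genes listed, 23 were measured, of which 7 were lower, 4 higher and 12 did not pass (limma, adjusted p under 0.05). Of all tested probe sets 11.7% were lower and 15.0% higher, so the count of higher factors is near that share. The median change of the 23 factors was -0.11. Those that fell were Mlxipl, a glucose-responsive factor also found in enterocytes (-3.35), Dach1 (-2.83), St18 (-1.64), Runx1t1 (-1.16), Lmx1a, a LIM-homeodomain factor of serotonin-producing cells (-0.51), Peg3 (-0.50) and Myt1 (-0.49). Those that rose were the homeodomain factor Hhex (3.94), the zinc finger factor Glis3 (2.50), the forkhead factor Foxa2 (1.32) and Onecut3 (1.10). Hhex averaged 9.68 ± 0.40 in KO arrays and 5.74 ± 0.27 in WT arrays (SD, n = 5 each). St18 averaged 3.20 ± 0.33 in KO and 4.84 ± 0.58 in WT (SD, n = 5 each), so its KO mean lay below the negative control range and its WT mean within it. Both means of Peg3 (4.41 in KO, 4.91 in WT) lay within that range, and the KO means of Dach1 and Runx1t1 within or below it, so the sizes of these 4 falls are not settled. With limma's treat against 1.2-fold 4 of the 23 fell, where 6.45% of tested probe sets were lower. With spike-in centring 4 fell and 12 rose, where 972 of the 19572 tested probe sets fell and 12655 rose.

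The products of endocrine cells were lower alongside the factors. Of 14 hormone and serotonin synthesis genes measured, 9 fell, where 11.7% of all tested probe sets did, and 0 rose, where 15.0% did. The other 5 did not pass, and the median change of the 14 was -1.98. By the smallest p-values the falls were led by Cck (-3.62), Tac1, which encodes substance P (-4.20), the ghrelin gene Ghrl (-2.55) and Gip, an incretin (-2.74). The KO mean of Tac1 (3.88) lay below the negative control range, so the size of its fall is a lower bound. Gip averaged 7.29 ± 0.32 in KO arrays and 10.03 ± 0.44 in WT arrays (SD, n = 5 each). The 5 that did not pass, named after their values were seen, were Iapp (-0.40), Nts (-0.23), Insl5 (-0.20), Pyy (-0.05) and Gast (0.01). Iapp, Nts and Insl5 had means within or below the negative control range in both groups. With spike-in centring 8 of the 14 genes fell and 2 rose, where 972 of the 19572 tested probe sets fell and 12655 rose.

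Of 24 measured genes for hormone granules and their release, 15 fell and 1 rose, where 11.7% and 15.0% of all tested probe sets did. The other 8 did not pass, and the median change of the 24 was -0.66. Chgb (-4.81), Scg2 (-2.80) and Ptprn2, a phosphatase-like protein of granule membranes (-1.48), were among those that fell. The KO mean of Chgb (4.78) lay within the negative control range and that of Scg2 (4.02) below it, so both sizes are lower bounds. The member that rose was Pam (2.57), which amidates peptide hormones and is made in many other cell types, at 10.50 ± 0.15 in KO and 7.94 ± 0.29 in WT (SD, n = 5 each). Without WT replicate 3, 2 of the 24 genes rose. With spike-in centring 7 fell and 5 rose, where 972 of the 19572 tested probe sets fell and 12655 rose.

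**Figure D4:**
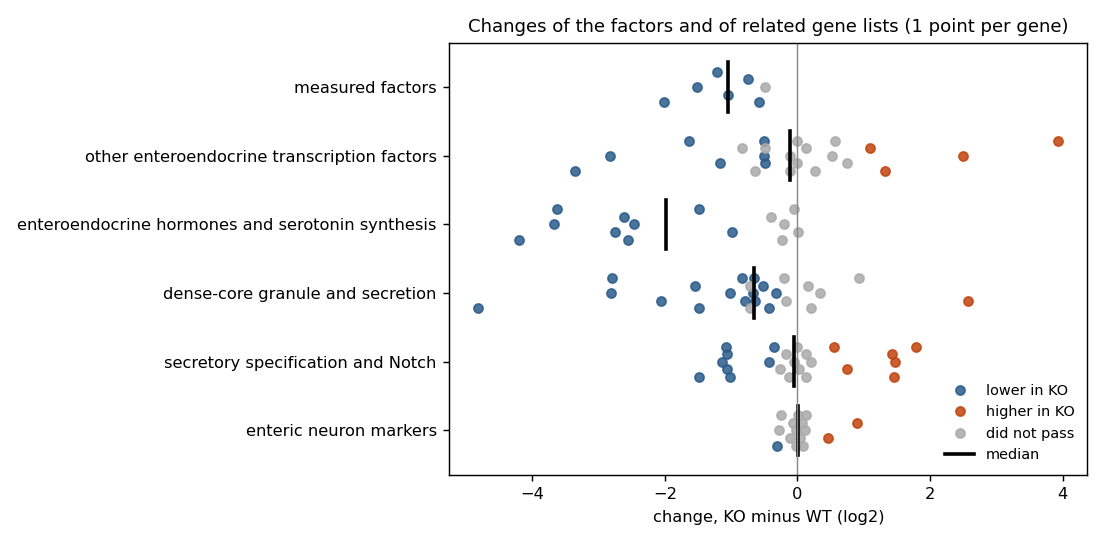
Change of each gene, KO minus WT on the log2 scale (horizontal axis), for the 7 measured factors and 5 related lists, coloured by limma call, with the median of each list as a black bar. The medians are -1.05 for the factors, -0.11 for other endocrine transcription factors, -1.98 for hormones, -0.66 for granule genes, -0.05 for secretory and Notch genes and 0.02 for enteric neuron markers.

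Genes of secretory specification and Notch signalling, not all of which act before Neurog3, went both ways. Of 23 measured secretory specification and Notch genes, 8 fell, 6 rose and 9 did not pass, with a median change of -0.05. Of all tested probe sets 11.7% fell and 15.0% rose. The receptor Notch2 (1.47), the ligand Jag1 (1.42) and Btg2, an antiproliferative gene induced early in endocrine progenitors (1.46), rose, and the Notch feedback inhibitor Nrarp fell (-1.13). Atoh1, named after its value was seen, averaged 6.36 ± 0.66 in KO and 7.43 ± 0.16 in WT (SD, n = 5 each), a change of -1.07 (limma, adjusted p = 0.0103), and its groups overlapped. Hes1, also named after its value was seen, ranged from 8.38 to 8.53 in KO and from 8.22 to 8.92 in WT and did not pass (-0.05; limma, adjusted p = 0.845). The count of 8 lower genes was not stable: 5 fell where WT replicate 3, KO replicate 1 or KO replicate 3 was left out, and 4 where WT replicate 2 or WT replicate 5 was. It was 5 without KO replicate 2 and WT replicate 4 together, 3 by exact permutation and 2 by limma's treat. With spike-in centring it was 1 beside 13 that rose, where 972 of the 19572 tested probe sets fell and 12655 rose.

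Markers of the other intestinal cell types moved in the same arrays. All 10 enterocyte markers fell, 8 of 9 Paneth cell markers fell and 1 rose, and 8 of 10 goblet cell markers fell and 0 rose. The mean level of the enterocyte list ranged from 5.71 to 5.98 in KO arrays and from 10.12 to 11.99 in WT arrays. That of the Paneth cell list ranged from 5.48 to 6.04 in KO and from 10.58 to 10.86 in WT. Goblet cell markers spread more in KO, with mean levels from 7.11 to 9.76, against 9.75 to 10.68 in WT. Of 9 tuft cell markers 1 fell and 1 rose, near the 11.7% and 15.0% of all tested probe sets that did. The part of these cell types in the fall of the endocrine factors was not tested. Vil1, a marker of the intestinal epithelium named after its value was seen, was at 10.11 ± 0.28 in KO and 11.14 ± 0.33 in WT (SD, n = 5 each).

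Because the factors also serve in neurons and islets, markers of those cells were read too. Of all tested probe sets 11.7% fell and 15.0% rose, and the counts of the lists read here are near or below those shares. Of 15 enteric neuron and glia markers, 1 fell, 2 rose and 12 did not pass. The mean level of the list ranged from 5.29 to 5.49 in KO arrays and from 5.24 to 5.37 in WT arrays. Of the 15, 8 were above the negative control median in every array, namely Phox2a, Ret, Hand2, Stmn2, Tubb3, Nos1, Sox10 and S100b. The receptor tyrosine kinase Ret (0.90) and the glial gene S100b (0.46), named after their values were seen, were the 2 that rose. Elavl4 (at most 4.12 in KO arrays and in WT arrays), Prph (mean 4.22 in KO, 4.19 in WT), Chat (mean 3.86 in KO, 3.89 in WT) and Snap91, the 1 that fell (-0.31), were not above that median in any array. The part of neuronal or glial cells in the levels of the factors was not tested. Of 11 pancreatic markers 1 fell, the glucose transporter Slc2a2 (-5.42), which enterocytes also make, and 0 rose. Pdx1, a homeodomain factor of pancreas and duodenum, stood at 8.16 ± 0.32 in KO and 8.15 ± 0.24 in WT (SD, n = 5 each). Of 10 mesenchymal, endothelial and immune markers 0 fell and 1 rose, the receptor Csf1r (1.53), and these genes were named after their values were seen.

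For each factor that fell, the 2 genes with the most similar profile were found by the root mean square difference of centred levels over the 10 arrays, among 17070 genes. The measure reads the KO to WT difference and the array-to-array variation together, and it is a description. Closest to Neurog3 were Epb42 (0.19) and St18 (0.20), and closest to Rfx6 were Hpd and Papln (0.15 each). Closest to Insm1 were Ern2 (0.16) and Nectin1 (0.19), to Pax4 Pitx1 (0.15) and Nrarp (0.16), to Pax6 Ccdc58 and Sdhc (0.12 each), and to Isl1 Dusp12 and Acadvl (0.12 each).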

How the data were processed

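Total RNA of 10 mouse intestinal organoid samples was hybridised to 1 array each, from 100 ng labelled with biotin per the labels' protocols. For every array the authors deposited log2 values of the probe sets; RMA and limma are the tools that the submitters' processing notes list. Their versions, and whether the arrays were normalized jointly, are not stated there. The table holds 28846 probe sets, of which 19572 have 1 gene symbol.

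KO and WT were compared with limma 3.58.1 (R 4.3.3) on all probe sets, and p-values were adjusted by Benjamini-Hochberg over the 19572, at a threshold of 0.05. Pairs of factors were compared by exact permutation. Tables were made in Python 3.11.15 (numpy 2.4.6, pandas 2.3.3), and figures with matplotlib 3.10.9. The number of arrays limits precision, no detection calls were used, and the scripts were tested on simulated data.

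The factors and lists were chosen with earlier results of these data known. Named genes were all factors, the 4 smallest p-values of each related list that is not a cell type check, other endocrine factors that passed, cell type markers near the negative controls, and the 2 nearest profiles; exceptions are marked. Predicted genes and olfactory or vomeronasal receptors were left out as neighbours. Alternatives changed normalization, filters, variance model, weights, adjustment, probe set choice, test, replicate block and arrays; spike-in centring was added after the data were seen.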

Additional observations from a re-analysis of the deposited data

Results flagged for a closer look

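Among the 16 groups of 5 arrays examined, which covered the 7 measured factors and Nfkbia in KO and WT, 1 held a value far from the other 4. Nfkbia in WT replicate 5 stood at 9.85, against 8.95 to 9.19 in the other WT arrays, so that the gap took up 0.730 of the group's range. Chance gives such a value in about 1 in 20 groups. None of the endocrine factors held such a value in either group, WT replicate 4 for Neurog3 and Isl1 included.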

How the results depend on the processing

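The falls of Rfx6, Neurog3, Insm1 and Pax4 passed under all 23 alternatives, with changes of -2.11 to -1.52, -1.74 to -1.02, -1.34 to -0.72 and -1.18 to -0.56. Isl1 passed under 22, Pax6 under 21, and Nkx2-2, which missed the threshold as deposited, passed under 9 and not under 14. Nkx2-2 turned to 0.00099 with spike-in centring (limma, adjusted p = 0.997). Leaving out single arrays gave 6 to 7 lower factors and 0 higher ones. Other enteroendocrine transcription factors held 4 lower with treat; with spike-in centring 4 were lower and 12 higher. Spike-in centring gave 2 higher hormones, and 7 lower and 5 higher granule genes. For secretory and Notch genes the lower count was 2 with treat, 3 by exact permutation, 5 without KO replicate 2 and WT replicate 4, and 1 with spike-in centring, which gave 13 higher. Without single arrays it was 4 to 8, higher granule genes were 1 to 2, and pairs of factors that differed were 4 to 14. The cause of these shifts was not tested. Spike-in centring made 92.9% of all calls higher in KO, against 56.0% as deposited. Of the 19572 tested probe sets, 12655 were higher and 972 lower with it. The labels do not say whether the replicate numbers pair the samples. The main comparison used no pairing, and the values that follow do not settle whether the samples are paired. Same-numbered KO and WT arrays deviated together with r from -0.07 to 0.36, and 2 of 5 KO arrays were closest to their own number. With the replicate block 4913 probe sets passed, against 5224 without it, and 6 factors were lower as before.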
